A study of Mus musculus with 12 samples.

Results

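Core circRNAs are described here: circular RNAs that held at least 1 back-spliced junction read in each of 12 libraries from 4 mouse cell lines. Of the 8928 circRNAs that both deposited tables list, 474 met that rule, and 13474 circRNAs are listed in either table. The lines were 4T1 (breast cancer cells) and Eph4-ev (breast epithelial cells) for the mammary lineage, and B16F10 (melanoma cells) and Melan-a (melanocytes) for the pigment lineage, with 3 libraries of each. All 12 libraries were made from total RNA digested with RNase R, so the controls carry that treatment too, and the labels give no other agent or genotype. The labels do not say whether the replicates of a line were separate cultures, so p-values measure the spread between libraries, which may be technical. Each lineage is represented by a single tumour line and a single non-tumour line, so the effect of tumour state and any other difference between the lines cannot be told apart. The lineages come in separate tables, so a difference between lineages cannot be told apart from a difference between tables.

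A circular RNA forms when the spliceosome joins the end of an exon back to the start of the same or an earlier exon. The result is a closed loop without free ends, which makes it resistant to exonucleases such as RNase R and often long lived in the cell. Exons with long flanking introns, in particular the second exon of a gene, are known as frequent sources of such loops, and the loop competes with the linear mRNA for the same splice sites. A read is assigned to a circle only when it spans this back-spliced junction, and each circle has 1 such junction, so levels of different circles can be set side by side as RPM, the reads of a circle scaled to a fixed total of junction reads per library.

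The sequence that defines a circle is its junction, which no linear transcript of the gene holds in that order. The lines below give the last 15 bases of the circle in lower case and its first 15 bases in capitals, 5′ to 3′ on the strand of the gene, so that the step from lower case to capitals is the back-splice itself. They were read from GENCODE M21 transcripts on mm10 (GRCm38). The first 5 belong to the 5 circles of highest mean level and the sixth to the most even circle. The next 4 were chosen, after their values were seen, from the 8 called circles with the largest ratio between line means.
Pvt1 chr15:62107148-62107465 plus strand: agctccctctaaaatGTCTGATTTTCTTAA
Elf2 chr3:51308050-51326035 minus strand: agaattcagaaacagTAGTTCCAGAGAACC
Gigyf2 chr1:87364104-87380008 plus strand: gaagaaaagatgtagGCTCCGTGCTCTGTC
Nfix chr8:84771784-84772315 minus strand: ttgtccacactccggGATGAGTTCCACCCG
Eefsec chr6:88355483-88358642 minus strand: atccctgccctcaagATTCCGGGGTGCACC
Dennd1b chr1:139053346-139062971 plus strand: agcaaattaagcactTTACTTGCCATGGTT
Zfp609 chr9:65794622-65795495 minus strand: gtcaagtctgaaaagCAATGATGTTGTCCA
Tns3 chr11:8478225-8479665 minus strand: tgcacaaaggtcgagGTGATGACCCCATTG
Eif5b/Rev1 chr1:38053616-38085652 minus strand: aaaatacatgaaaagGCACTATGTCAGTGT
Ncoa2 chr1:13221307-13286025 minus strand: agatcaaagagcaagATTTTCCTCGCATCT

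Med13l gives the seventh most abundant circle, a single coding exon of 238 bases at chr5:118593333-118593570 on the plus strand. It is short enough to print whole, with its last 15 bases, which join back to its first base, in capitals.
Med13l: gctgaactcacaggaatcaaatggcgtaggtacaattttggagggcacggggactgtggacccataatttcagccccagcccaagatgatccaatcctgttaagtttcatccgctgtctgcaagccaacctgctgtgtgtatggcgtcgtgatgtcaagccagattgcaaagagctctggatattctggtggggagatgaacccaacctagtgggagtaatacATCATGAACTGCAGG

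The libraries held 15572 to 56649 junction reads, so 1 read was worth 17.7 to 64.2 RPM and a circle at the edge of the rule was known only to within a few reads. The Eph4-ev libraries were the deepest. Junction reads of melanocyte marker genes numbered 189 to 257 per library in B16F10 and 139 to 324 in Melan-a, against 0 in each 4T1 library and 0 to 5 in Eph4-ev, where Mitf alone had them. Mammary epithelial markers gave 35 to 119 reads in 4T1 and 259 to 313 in Eph4-ev, against 0 to 2 in the pigment lines. Of 15 melanocyte markers, 9 had reads in B16F10 and 10 in Melan-a, and of 21 mammary epithelial markers 8 had reads in each mammary line. Markers of fibroblasts and of immune cells had 0 reads in all 12 libraries. Since many markers gave no circle in their own lines, this does not show that such cells were absent. None of the core circRNAs came from a gene on any of these marker lists. The rule fixed this outcome, since each list had 0 reads in at least 1 library.

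Core circRNAs made up a small part of the circRNAs found and a large part of the reads. They were 8.61% to 15.1% of the 3134 to 5503 circRNAs with reads in a library, and they took 41.4% to 46.8% of its junction reads. By line the share was 43.7% ± 0.943 (SD, n = 3) in 4T1, 46.0% ± 0.665 in Eph4-ev, 42.9% ± 1.57 in B16F10 and 44.6% ± 2.17 in Melan-a. Only 46 to 66 of the 474 held 50% of the core reads in a library. The 10 most abundant circles took 5.77% ± 0.367 of all junction reads in Eph4-ev, 7.07% ± 0.548 in 4T1, 9.39% ± 0.476 in B16F10 and 10.4% ± 0.735 in Melan-a. The libraries of the mammary lines, at 5.35% to 7.49%, lay below all libraries of the pigment lines, at 8.84% to 10.9%. These 10 were ranked by their mean over the 4 lines. With the 10 most abundant core circles of each library itself, the shares were 7.88% to 9.14% in the mammary and 10.1% to 13.1% in the pigment libraries, still without overlap but closer together. These shares are a description, since the rule chose circles with reads everywhere.

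**Figure D1:**
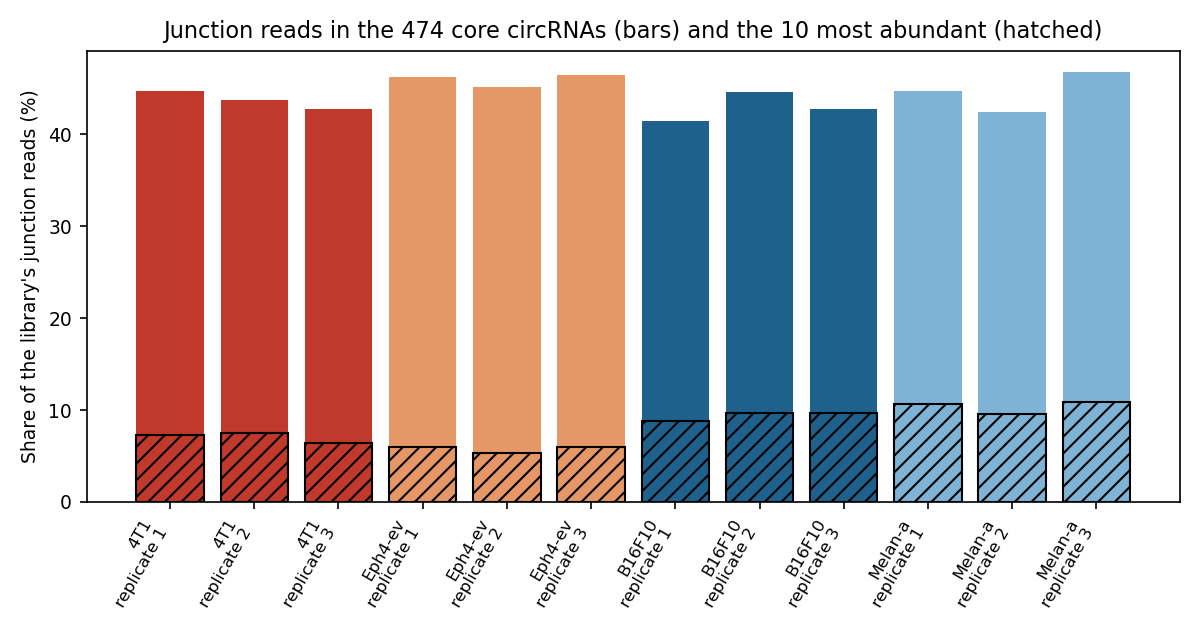
Share of each library's junction reads (%, vertical axis) that fell on the 474 core circRNAs (full bars) and on the 10 most abundant of them (hatched), for the 3 libraries of each line. The full bars stand between 41.4% and 46.8% in all 12 libraries, while the hatched bars are lower in the mammary lines than in the pigment lines.

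The rule had a soft edge. A lowest count of exactly 1 read was seen for 134 of the 474, whereas 340 had at least 2 reads, 172 at least 5 and 81 at least 10 in each library. Just inside were circles of Csnk1g3, a casein kinase 1 gene, Vac14, a scaffold of the phosphoinositide kinase complex on endosomes, and Rps6kc1, a gene related to the ribosomal S6 kinases, whose circle at chr1:190808883-190844602 had the lowest mean of all at 72.9 RPM. Just outside were 266 circles with reads in 11 of the 12 libraries. Their missing library was a 4T1 library for 41, 38 and 26 of them by replicate, an Eph4-ev library for 3, 4 and 9, a B16F10 library for 20, 25 and 28, and a Melan-a library for 30, 14 and 28. The most abundant of those left out came from Met, the receptor of hepatocyte growth factor, which had 120 to 133 reads in the B16F10 libraries but 3, 0 and 3 in 4T1. A circle of Gbe1, the glycogen branching enzyme, had 4, 0 and 3 reads in 4T1, and one of Crim1, which encodes a membrane protein that binds bone morphogenetic proteins, had 6, 10 and 0 in Melan-a.

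The 474 circles came from 390 host labels, and 11 circles carried a label that names more than one gene. A single core circle was found for 325 host labels and a pair for 53, while 12 hosts held 3 or more and together 43 circles. The median core circle took 66.3% of its host's junction reads in 4T1, 65.1% in Eph4-ev, 71.3% in B16F10 and 67.6% in Melan-a. It took over 50% in all 4 lines for 234 circles, and 38 were the only circle read from their host. Both ends of 467 circles lay at exon boundaries of 1 GENCODE transcript. Of those, 339 held coding sequence alone, 118 reached from the 5′ UTR across the start codon, and 5 came from transcripts without a coding sequence, among them the pair from Pvt1.

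The comparison set was the 8454 other circRNAs that both tables list, with reads in 1 to 11 libraries. Circles listed in 1 table alone were left out. Beside this set, the core circles sat between longer introns. The intron upstream had a median of 16228 bases against 8172, and the intron downstream a median of 12268 against 5436.5. The first exon of the circle was exon 2 of its transcript in 228 (48.8%) of the matched core circles and in 34.9% of the others. A single exon formed 10.7% of core circles against 4.36%, and 8 or more exons formed 2.57% against 8.77%. The median spliced length was 425 bases against 458.5, and the GC content 48.7% against 48.2%, so in size and composition the groups were close. The start codon lay in 25.3% of core circles and in 15.6% of the others, and 52.7% carried a circBase entry in the deposited tables against 6.08%. Intron length, start at exon 2, start codon and circBase entry all ran in the same order across circles with reads in 1 to 3, 4 to 6, 7 to 11 and 12 libraries. Read number ran in that order too, from a median of 5 reads in all for the first class to 206 for the core, and its part in these differences was not tested. Among coding-only circles, the spliced length was a multiple of 3 in 124 of 339 core circles (36.6%) and in 39.3% of the others.

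**Figure D2:**
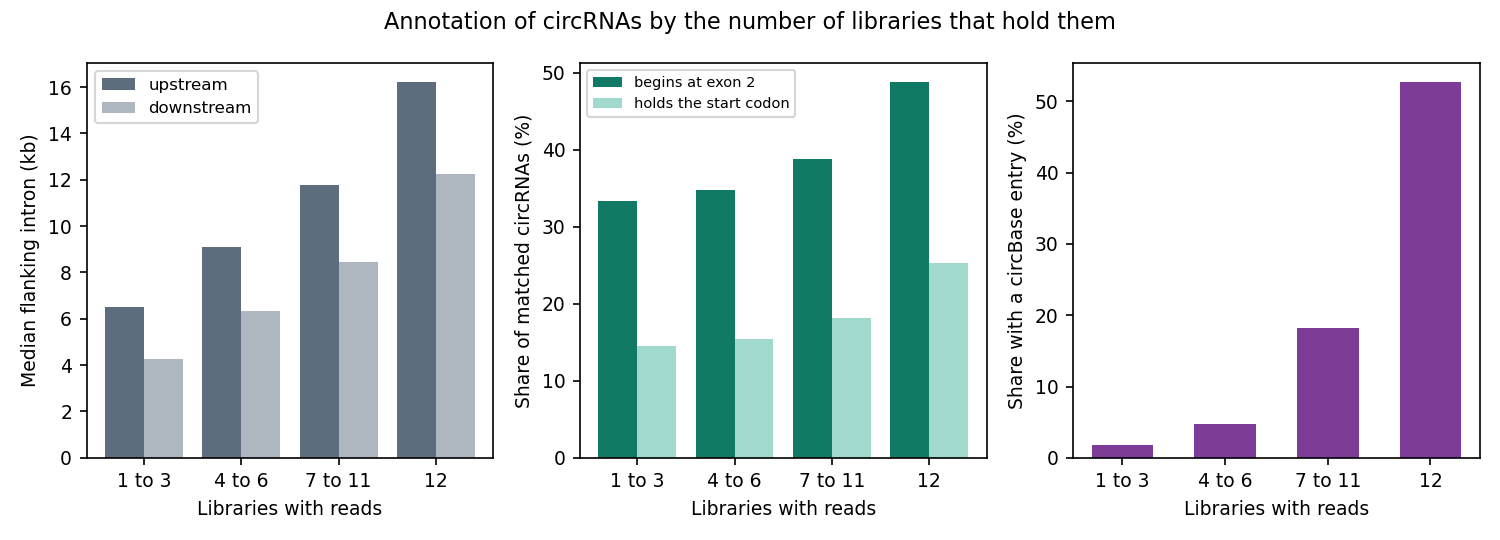
Annotation of circRNAs grouped by the number of libraries with reads (horizontal axes): median length of the flanking introns in kb, share (%) that begins at exon 2 or holds the start codon, and share (%) with a circBase entry. Only circRNAs listed in both tables are shown. Each measure is highest in the 474 core circles, where the upstream intron has a median of 16228 bases and 52.7% have an entry.

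The most abundant core circle came from exon 2 of Pvt1, a long noncoding RNA gene next to Myc. It was read at 17596, 19622 and 15619 RPM in the 4T1 libraries, 13051, 13116 and 16129.9 in Eph4-ev, 11344, 14165 and 12038 in B16F10 and 25168, 18059 and 23572 in Melan-a. The highest line mean was 1.78 times the lowest, and the 3 Melan-a libraries were mostly above the rest, with 1 of them inside the 4T1 range. It differed among the 4 lines (edgeR adjusted p = 0.0016) and was lower in B16F10 than in Melan-a, with a log2 fold of -0.89 (adjusted p = 0.012, SE 0.20), a call lost without any 1 of the B16F10 libraries (edgeR adjusted p = 0.081 to 0.14) or without the filter on low counts (0.076). In 4T1 against Eph4-ev its log2 fold was 0.08 (adjusted p = 0.73, SE 0.12). This circle supplied 89.1% to 97.2% of all Pvt1 junction reads as line means.

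Elf2, an ETS family transcription factor, and Gigyf2, a translational repressor, gave the circles next in level, and both were higher in the pigment lines. The Elf2 circle of exons 2 to 4 was read at 3596, 3327 and 6073 RPM in the 4T1 libraries, 7739.7, 5702 and 6985 in Eph4-ev, 18439.9, 20244 and 21800.3 in B16F10 and 22336, 29293 and 24248 in Melan-a. No pigment library overlapped a mammary library. The Gigyf2 circle of exons 4 to 8 was read at 7513, 7499 and 4235 RPM in the 4T1 libraries, 6851, 5119 and 6139 in Eph4-ev, 15342, 13988 and 15392 in B16F10 and 28279, 19340.2 and 34066 in Melan-a, again without overlap between lineages, and within the pigment lineage Melan-a stood above B16F10. Both passed the 4-line test (edgeR adjusted p = 9.7e-09 and 9.7e-09). Gigyf2 was lower in B16F10 than in Melan-a with a log2 fold of -0.93 (adjusted p = 0.012, SE 0.21), and Elf2 was lower in 4T1 than in Eph4-ev with a log2 fold of -0.83 (adjusted p = 0.048, SE 0.26). The Gigyf2 call was lost without Melan-a replicate 3 or any 1 of the B16F10 libraries (edgeR adjusted p = 0.066 to 0.13), and the Elf2 call without any 1 library other than 4T1 replicate 3 (0.071 to 0.097) or with total reads in place of TMM factors (0.094).

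Nfix, a nuclear factor I transcription factor, showed the opposite lineage pattern at a level close to that of Pvt1 in the mammary lines. Its single-exon circle at chr8:84771784-84772315 was read at 17210.4, 19679 and 16358 RPM in the 4T1 libraries, 12873, 11492 and 11611 in Eph4-ev, 599.7, 767 and 659 in B16F10 and 439, 715 and 914 in Melan-a. The pigment values rest on 11 to 24 reads per library, and the lowest mammary library lay above the highest pigment library by more than 10 times. The 4-line test gave an edgeR adjusted p of 7.3e-13. Within lineages the line means were closer, with log2 folds of 0.33 (adjusted p = 0.081, SE 0.12) for 4T1 against Eph4-ev and -0.10 (adjusted p = 0.93, SE 0.42) for B16F10 against Melan-a.

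Eefsec, the elongation factor that delivers selenocysteine, and Rnf169, an E3 ubiquitin ligase recruited to DNA breaks, gave circles that were also higher in both pigment lines. Eefsec exons 3 to 4 reached 1927, 1522 and 1232 RPM in the 4T1 libraries, 1895, 2189 and 1764 in Eph4-ev, 13992, 15228 and 18207 in B16F10 and 6940.0, 4857 and 7513 in Melan-a. B16F10 stood above Melan-a (log2 fold 1.23 (adjusted p = 0.0031, SE 0.23)), and both stood above all mammary libraries. Rnf169 exons 2 to 4 reached 1927, 1917 and 807 RPM in the 4T1 libraries, 3179, 3319 and 3276 in Eph4-ev, 5747, 5725 and 6289 in B16F10 and 6780.5, 6765 and 5525 in Melan-a. Here the pigment lines overlapped each other, and 4T1 lay below Eph4-ev, with a log2 fold of -1.39 (adjusted p = 0.011, SE 0.28) that missed the threshold without Eph4-ev replicate 2 (edgeR adjusted p = 0.083). Zfp516, a zinc finger transcription factor, followed the same order between lineages, with line means of 4529 ± 1196 RPM in 4T1, 2178 ± 303 in Eph4-ev, 7106 ± 916 in B16F10 and 7010.3 ± 534 in Melan-a (n = 3, SD).

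Med13l, which belongs to the kinase module of Mediator, marked 4T1 instead. Its circle was read at 14128, 11221 and 8493 RPM in the 4T1 libraries, 2922, 2948 and 3402 in Eph4-ev, 1649, 2951 and 1617 in B16F10 and 3470.0, 2205 and 2345 in Melan-a. The 4T1 libraries lay above all others, and the other 3 lines overlapped or lay close together. It rose in 4T1 over Eph4-ev with a log2 fold of 1.61 (adjusted p = 0.00032, SE 0.18), and in B16F10 against Melan-a the log2 fold was -0.43 (adjusted p = 0.48, SE 0.32). Rsrc1, an SR-related splicing protein, gave the least divided circle of the 10 after Pvt1, at 5191 ± 1884 RPM in 4T1, 5429 ± 496 in Eph4-ev, 3148 ± 177 in B16F10 and 2493 ± 749 in Melan-a (n = 3, SD).

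**Figure D3:**
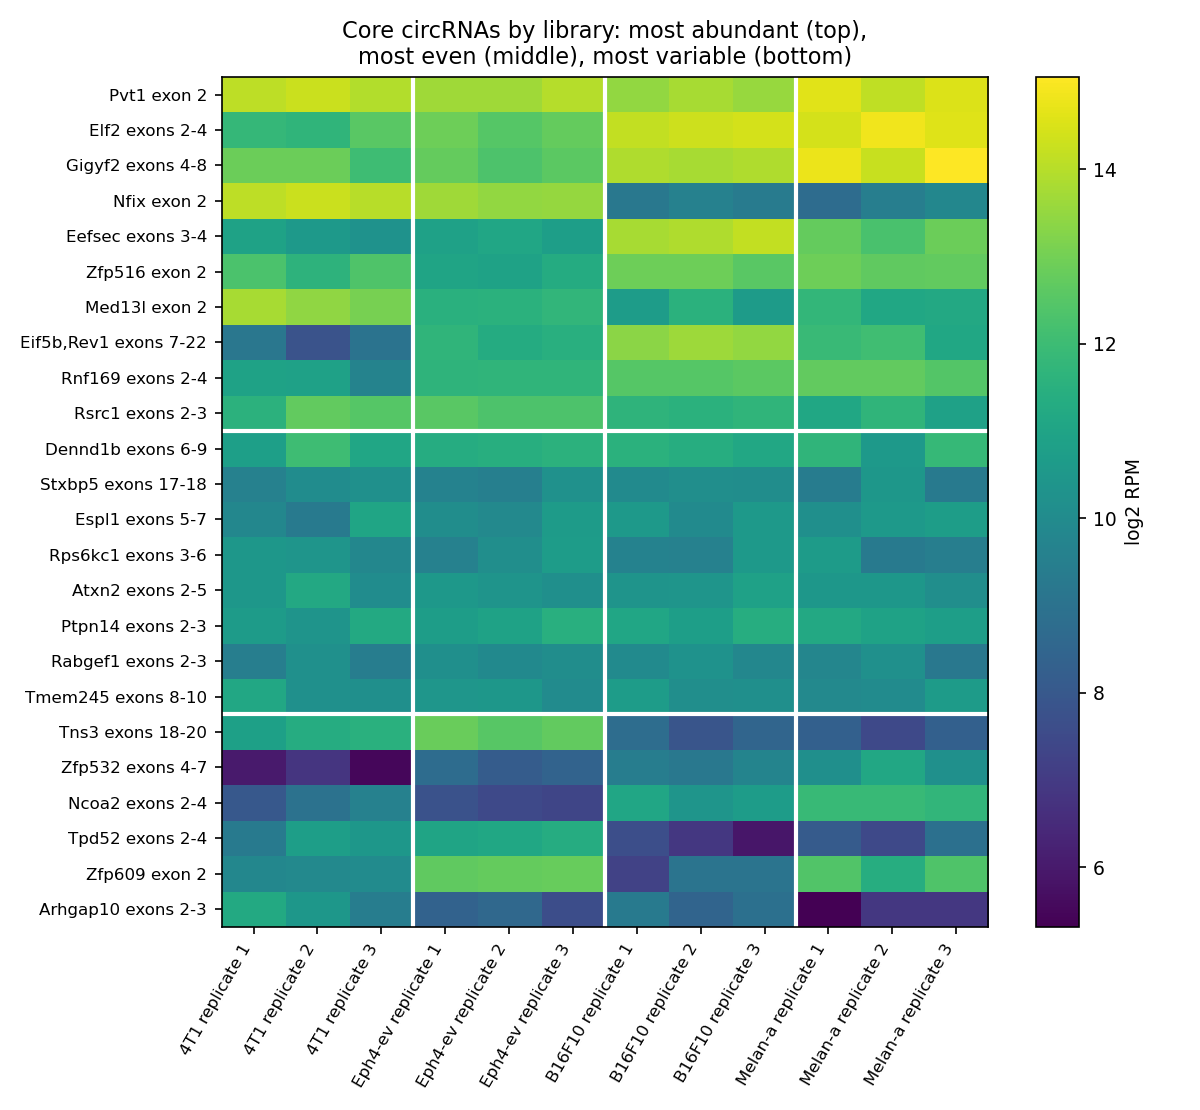
Level of named core circles (rows) in the 12 libraries (columns) as log2 RPM (colour): the 10 most abundant at the top, the 8 most even in the middle and the most variable at the bottom, of which Nfix and the Eif5b/Rev1 circle already stand among the 10. The middle block keeps nearly the same colour across a row, with line means within 1.28 times, whereas the Nfix and Tns3 rows change at the border between mammary and pigment lines.

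Across the 4 lines the ratio of the highest to the lowest line mean had a median of 3.03 (quartiles 2.21 and 4.42) and ran from 1.07 to 26.3. It was under 1.5 for 23 circles, under 2 for 91, over 5 for 87 and over 10 for 26. The 4-line test could be run for 467 of the 474 and called 201 of them (43.0%) at an edgeR adjusted p under 0.05. Of all 1518 circRNAs tested the same way, 43.7% were called, so the core share was near the background. This background, like those given below, includes the core circles. Outside the core, 462 of 1051 were called. Those others lacked reads in at least 1 library and could pass the filter through lines where they were high, so the sets are not alike. The calls followed depth: 160 of the 237 circles of higher mean RPM were called, against 41 of the 230 tested among the 237 of lower mean RPM, although the median ratio was 3.14 in the former and 2.94 in the latter. A circle that was not called is therefore not shown to be even. Among the 201 called, the highest line was Eph4-ev for 63, Melan-a for 52, 4T1 for 44 and B16F10 for 42, so no line held most of the maxima.

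**Figure D4:**
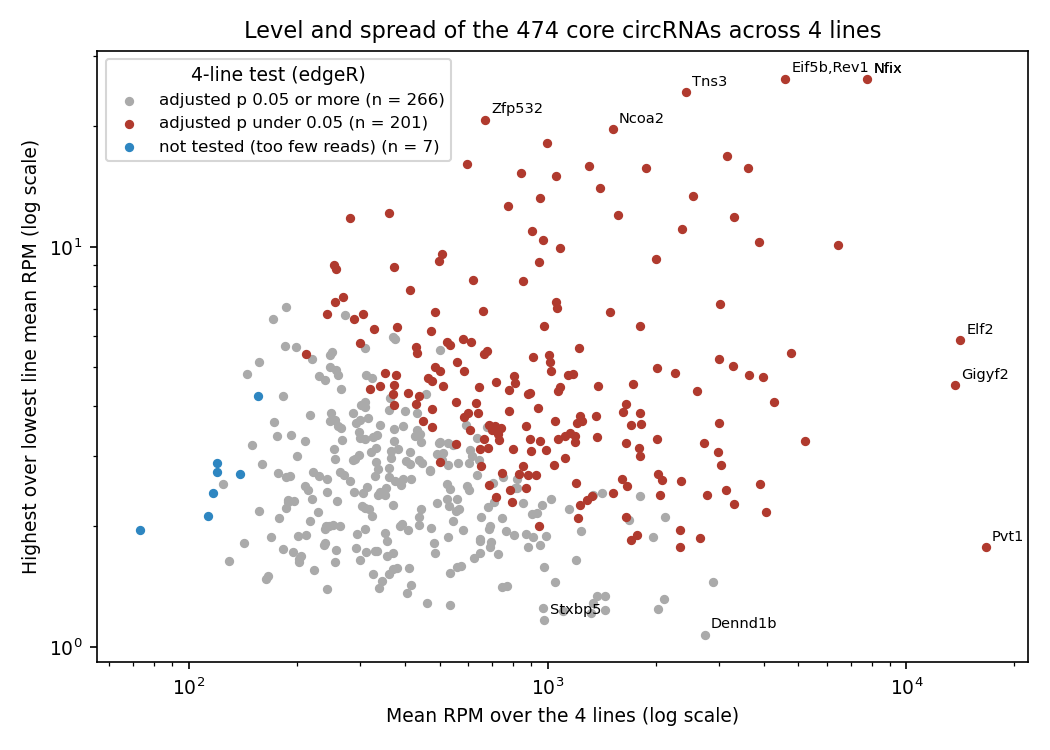
Mean RPM over the 4 lines (horizontal, log scale) against the ratio of highest to lowest line mean (vertical, log scale) for each of the 474 core circles, coloured by the 4-line test: 201 with an adjusted p under 0.05, 266 without and 7 not tested. Called circles fill the upper right, and Dennd1b, at a ratio of 1.07, lies at the bottom among circles of high level.

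The 8 most even circles among those with at least 10 reads in every library were led by one of Dennd1b. This circle of exons 6 to 9, from the gene of a guanine exchange factor for Rab GTPases, had line means of 2715 ± 1276 RPM in 4T1, 2801 ± 203 in Eph4-ev, 2627 ± 337 in B16F10 and 2819 ± 1171 in Melan-a (n = 3, SD). Its libraries were 1798, 4173 and 2174 RPM in the 4T1 libraries, 2626, 2754 and 3024 in Eph4-ev, 2948, 2656 and 2276 in B16F10 and 3271, 1490.0 and 3697 in Melan-a, so the spread within 4T1 and Melan-a was wider than that between lines. Stxbp5, which encodes the syntaxin-binding protein tomosyn, gave 771, 1071 and 1188 RPM in the 4T1 libraries, 789.8, 741 and 1206 in Eph4-ev, 999, 1121 and 1078 in B16F10 and 678, 1430.4 and 636 in Melan-a. Espl1, the gene of separase, gave 899, 620.2 and 2106 RPM in the 4T1 libraries, 1086, 953 and 1620.2 in Eph4-ev, 1549, 1003 and 1557 in B16F10 and 1157, 1549.6 and 1709 in Melan-a, and the libraries of all 4 lines overlapped. This circle of exons 5 to 7 was the only one read from Espl1.

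The other 5 even circles came from Rps6kc1, Atxn2, Ptpn14, Rabgef1 and Tmem245. Atxn2, an RNA-binding protein with a polyglutamine tract, was read at 1619 ± 670.5 RPM in 4T1, 1306 ± 145 in Eph4-ev, 1524 ± 341 in B16F10 and 1326 ± 185 in Melan-a (n = 3, SD). Ptpn14, a tyrosine phosphatase that binds YAP, had line means of 1774 to 2205 RPM, and Rabgef1, an exchange factor for Rab5, 862 to 1078 RPM. The ratio of highest to lowest line mean was at most 1.28, reached by Tmem245. None of the 8 was called in the 4-line test (edgeR adjusted p = 0.56 to 1). The precision behind that can be read from the log2 folds, which for Atxn2 were 0.03 (SE 0.31) in 4T1 against Eph4-ev and 0.12 (SE 0.32) in B16F10 against Melan-a, and for Ptpn14 -0.44 (SE 0.31) and 0.06 (SE 0.29). Since the 8 were picked for small ratios, these values describe them and test nothing.

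The most variable circles were led by one at chr1:38053616-38085652, which the tables assign to both Eif5b, a translation initiation factor, and Rev1, a translesion DNA polymerase. Both of its ends fall on Rev1 exons 7 and 22, and the strand of the reads is not given in the tables, so the label is kept. It was read at 578, 226 and 515 RPM in the 4T1 libraries, 3317, 2524 and 2844 in Eph4-ev, 10494, 12808 and 11439 in B16F10 and 3869, 4321 and 2226 in Melan-a. The lines came in the order B16F10, then Melan-a and Eph4-ev, whose libraries overlapped, then 4T1, which rested on 4 to 23 reads. It fell in 4T1 with a log2 fold of -2.88 (adjusted p = 0.00045, SE 0.33) and rose in B16F10 with one of 1.66 (adjusted p = 0.0019, SE 0.28). A smaller circle of Rev1 exons 2 to 3 was read at 1006 ± 259.9 RPM in Eph4-ev and 434 ± 96.3 in B16F10 (n = 3, SD), so the 2 circles did not share their highest line.

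Tns3, the gene of tensin 3, an adaptor at focal adhesions, and Tpd52, a gene of vesicle traffic, were high in the mammary lines. The Tns3 circle of exons 18 to 20 was read at 1862, 2594 and 2891 RPM in the 4T1 libraries, 7207, 5896 and 6769 in Eph4-ev, 449.8, 236 and 359 in B16F10 and 319, 179 and 318 in Melan-a. Each line of the mammary lineage stood above both pigment lines, and 4T1 lay below Eph4-ev (log2 fold -1.63 (adjusted p = 0.00075, SE 0.21)). A second Tns3 circle, of exons 14 to 16, kept the order between lineages and differed little between the mammary lines, with line means of 5699 RPM in 4T1, 6035 in Eph4-ev, 1017 in B16F10 and 507 in Melan-a. Tpd52 had 1275 ± 569.9 RPM in 4T1, 2285 ± 259.6 in Eph4-ev, 126 ± 70.3 in B16F10 and 312 ± 152 in Melan-a (n = 3, SD), the B16F10 value resting on 1 to 4 reads per library.

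Ncoa2, a nuclear receptor coactivator, and Zfp532, a zinc finger gene, were high in Melan-a. The Ncoa2 circle was read at 257, 507 and 784 RPM in the 4T1 libraries, 217, 177 and 162 in Eph4-ev, 2149, 1357 and 1677 in B16F10 and 3789, 3725 and 3419 in Melan-a. Melan-a lay above B16F10 (log2 fold -1.13 (adjusted p = 0.024, SE 0.29)) and B16F10 above both mammary lines, but the call between the pigment lines was lost without Melan-a replicate 1 or any 1 of the B16F10 libraries (edgeR adjusted p = 0.061 to 0.18) and without the filter on low counts (0.094). Its share of all Ncoa2 junction reads moved from 26.2% in Eph4-ev to 89.4% in Melan-a. Zfp532 ran from 73.9 ± 35 RPM in 4T1, where libraries held 1 to 2 reads, to 1538 ± 629.7 in Melan-a (n = 3, SD). The 8 most variable circles, Nfix and the circles of Zfp609 and Arhgap10 described below included, spanned ratios of 16.1 to 26.3. The 4-line test chose them, so its p-values are not read as support.

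More core circles were divided without overlap by lineage than by tumour state. In 39 circles (8.23%) every mammary library lay above every pigment library (8.56% of all tested circRNAs did so). In 24 (5.06%) the reverse held (background 4.74%), and both shares were near the background. Every entry of the mammary table had mammary reads, but 4053 entries of the pigment table had no pigment reads. The background, drawn from circRNAs in both tables, could thus hold circles read only in mammary lines and none read only in pigment lines. What this did to the background shares was not tested. In 6 circles (1.27%) every tumour-line library lay above every non-tumour library (background 0.725%), and in 4 (0.844%) the reverse held (1.19%). These counts are small, and their distance from the background was not tested. A single line stood above the other 3 in 35 circles each for 4T1 and Eph4-ev (7.38% each), 29 for Melan-a (6.12%) and 28 for B16F10 (5.91%). The backgrounds were 8.63%, 8.37%, 4.55% and 4.08%. A single line stood below the other 3 in 21 circles each for 4T1 and B16F10 (4.43% each), 19 for Eph4-ev (4.01%) and 10 for Melan-a (2.11%). The backgrounds were 5.34%, 2.24%, 2.37% and 2.31%. For a line below the other 3, the core share was thus above the background for B16F10 and Eph4-ev, below it for 4T1 and near it for Melan-a. For a line above the other 3, it was above the background for Melan-a and B16F10 and below it for 4T1 and Eph4-ev. These distances from the background were not tested. The log2 line means of the 474 circles correlated at r = 0.73 between the mammary lines and r = 0.77 between the pigment lines, and at 0.53 to 0.63 between lines of different lineages. These are descriptions across circles, which are not independent. Pairs of single libraries of a line correlated at 0.69 to 0.87. That is not a like measure, since line means average 3 libraries.

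In the mammary lineage, 465 core circles could be tested for 4T1 against Eph4-ev, and 77 of them (16.6%) were called at an edgeR adjusted p under 0.05, beside a background of 17.4% of 1869 circRNAs. Of the 465 tested, 20 were called higher in 4T1, beside 112 of all 1869 (5.99%). Called lower were 57 of the 465, beside 213 of all 1869 (11.4%). The median log2 fold of the core circles was -0.20, and that of all tested circRNAs -0.22. The split moved with the scaling and the filter. With total reads in place of TMM factors it was 36 higher and 40 lower, and the median over all circRNAs was then -0.01, whereas RLE factors gave 21 and 57. A minimum count of 10 gave 37 higher and 54 lower, and no filter gave 9 and 60. Leaving out any 1 library other than 4T1 replicate 2 left 5 to 13 higher, and leaving out any 1 of the Eph4-ev libraries left 19 to 35 lower. The fewest in both directions were called without Eph4-ev replicate 2.

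Of the 4 circles with the largest drops in 4T1, those of Ptbp3 and Zfp609 kept their call in each alternative fitted, and Zfp609 is described further on. Ptbp3, a polypyrimidine tract-binding splicing regulator, gave a circle of exons 3 to 5 read at 578, 1748 and 807 RPM in the 4T1 libraries, 7404, 8032 and 7831 in Eph4-ev, 899.5, 708 and 719 in B16F10 and 718, 626 and 398 in Melan-a. Eph4-ev stood apart from all other lines, and the log2 fold was -3.15 (adjusted p = 9.8e-05, SE 0.29). Dera, the gene of deoxyribose-phosphate aldolase, was read at 64.2, 56.4 and 67.2 RPM in the 4T1 and 494, 635 and 522 in the Eph4-ev libraries, with a log2 fold of -3.25 (adjusted p = 0.0095, SE 0.65), on only 1 to 3 reads per 4T1 library. Its call was lost without Eph4-ev replicate 2 (edgeR adjusted p = 0.074). Vps13b, a lipid transfer protein of the Golgi, had 1 read in each 4T1 library against 16 to 22 in Eph4-ev, with a log2 fold of -3.15 (adjusted p = 0.026, SE 0.83). That call was lost without 4T1 replicate 3 or any 1 of the Eph4-ev libraries (edgeR adjusted p = 0.073 to 0.13) or without the filter on low counts (0.052).

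Higher in 4T1 were circles of Cers6, a ceramide synthase, Fndc3a, Nup155, a nucleoporin, and Phlpp1, a phosphatase of Akt. Phlpp1 exons 2 to 3 were read at 2697, 4680.0 and 4818 RPM in the 4T1 libraries, 691, 424 and 774 in Eph4-ev, 349.8, 118 and 299 in B16F10 and 239, 328 and 278 in Melan-a. All 4T1 libraries lay above those of the other 3 lines, and the log2 fold was 2.48 (adjusted p = 0.00075, SE 0.32). Cers6 was read at 963, 902 and 717 RPM in the 4T1 and 158, 70.6 and 54 in the Eph4-ev libraries (log2 fold 2.92 (adjusted p = 0.0094, SE 0.58)), a call lost without Eph4-ev replicate 2 (edgeR adjusted p = 0.069). Fndc3a was read at 1413, 1184 and 784 RPM in the 4T1 and 178, 124 and 72 in the Eph4-ev libraries, with no overlap and a log2 fold of 2.89 (adjusted p = 0.0049, SE 0.51). In the pigment lines Cers6 and Fndc3a held 1 to 4 reads per library and were not tested.

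In the pigment lineage, 408 core circles could be tested for B16F10 against Melan-a, and 42 of them (10.3%) were called, beside a background of 10.9% of 874 circRNAs. Of the 408 tested, 18 were called higher in B16F10, beside 44 of all 874 (5.03%). Called lower were 24 of the 408, beside 51 of all 874 (5.84%). The median log2 fold of the 408 was 0.01, against 0.04 over all tested. Leaving out any 1 library other than Melan-a replicate 2 left 8 to 11 higher and 5 to 13 lower, the fewest without B16F10 replicate 1. DESeq2 called 11 higher and 14 lower.

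Vps45, a SNARE regulator of endosomal fusion, had the largest drop in B16F10. Its circle of exons 8 to 10 was read at 578, 226 and 717 RPM in the 4T1 libraries, 789.8, 741 and 864 in Eph4-ev, 199.9, 118 and 539 in B16F10 and 3151, 3874 and 5009 in Melan-a. Melan-a stood above all other lines, with a log2 fold of -3.87 (adjusted p = 4.2e-05, SE 0.43) for B16F10 against Melan-a. In B16F10 it supplied 82.4% of Vps45 junction reads, and in Melan-a 48.9%, where other Vps45 circles were read as well. Atrnl1, an attractin-like membrane protein gene, was read at 199.9, 295 and 419 RPM in the B16F10 and 1197, 805 and 1193 in the Melan-a libraries (log2 fold -1.86 (adjusted p = 0.017, SE 0.45)), and the call was lost without Melan-a replicate 1 or any 1 of the B16F10 libraries (edgeR adjusted p = 0.053 to 0.12) or without the filter on low counts (0.076).

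The largest rises in B16F10 were those of Vars, Papd7, Hirip3 and Cbfb. Hirip3, which encodes a partner of the histone chaperone HIRA, was read at 1449, 2243 and 2096 RPM in the B16F10 and 119.7, 596 and 199 in the Melan-a libraries, with a log2 fold of 2.48 (adjusted p = 0.0036, SE 0.48). Cbfb, the binding partner of RUNX transcription factors, was read at 1349, 767 and 1078 RPM in the B16F10 and 159.5, 268 and 199 in the Melan-a libraries, and all Melan-a libraries were lower than all libraries of the other lines. Its log2 fold was 2.24 (adjusted p = 0.0067, SE 0.47), and the call was lost without B16F10 replicate 1 (edgeR adjusted p = 0.079).

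The folds of the comparisons showed little relation. Over the 404 core circles tested in both lineages, the log2 folds correlated at r = 0.06, a description across circles. Calls were made in the mammary lineage alone for 62, in the pigment lineage alone for 31, in both for 11 and in neither for 300. Over all 656 circRNAs tested in both comparisons, 18.3% were called in the mammary lineage alone, 6.71% in the pigment lineage alone, 3.2% in both and 71.8% in neither, and r was 0.09. The core shares were 15.3% in the mammary lineage alone, 7.67% in the pigment lineage alone and 2.72% in both. Of the 404, 3 were called higher in both tumour lines, beside 4 of all 656 (0.61%). Called lower in both were 3 of the 404, beside 10 of all 656 (1.52%). Calls in opposite directions were made for 5 of the 404, beside 7 of all 656 (1.07%). The difference between the folds was tested itself, as an interaction, in 467 core circles and called in 55 (11.8%), beside 10.7% of all circRNAs tested. That count was 33 without Eph4-ev replicate 2 and 36 without B16F10 replicate 2.

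**Figure D5:**
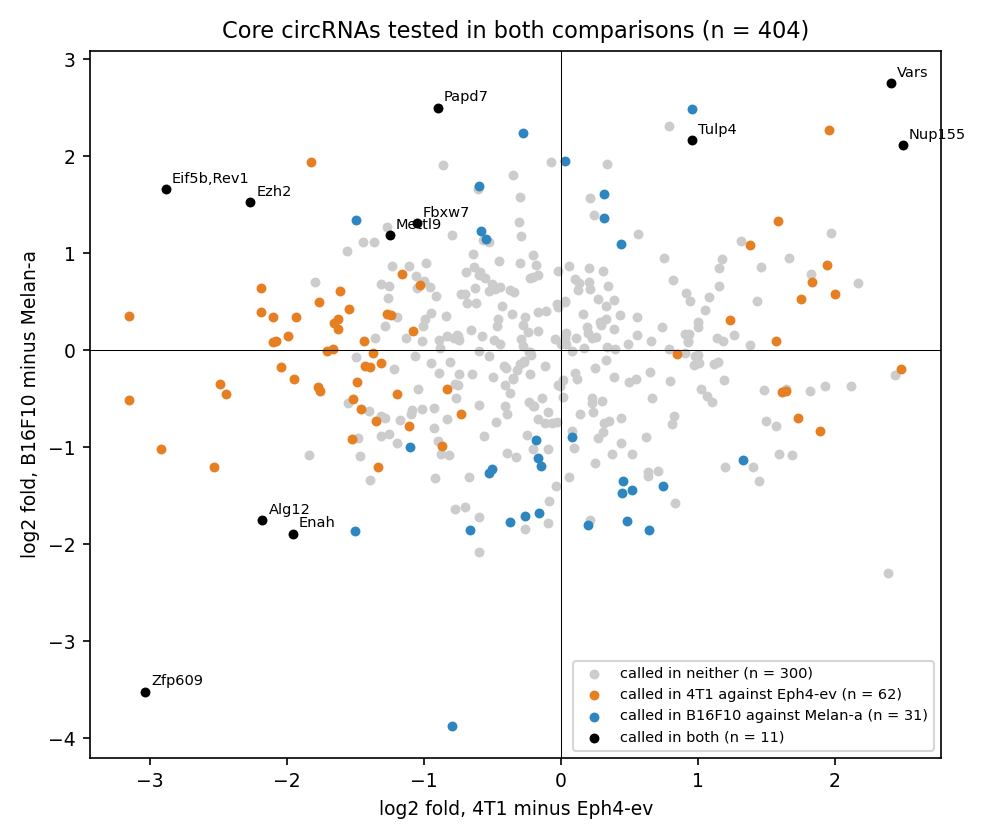
log2 fold of 4T1 minus Eph4-ev (horizontal) against B16F10 minus Melan-a (vertical) for the 404 core circles tested in both comparisons, coloured by where the edgeR adjusted p was under 0.05. The 11 circles called in both are named, and they fall in 3 of the 4 quadrants, with Zfp609 lowest on the left.

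Zfp609, a zinc finger gene whose second exon forms a much studied circle, was lower in both tumour lines. It was read at 899, 959 and 1031 RPM in the 4T1 libraries, 6555, 6919.8 and 7147 in Eph4-ev, 149.9, 531 and 539 in B16F10 and 5384, 2652 and 5287 in Melan-a. No tumour-line library reached the lowest non-tumour library. The log2 folds were -3.03 (adjusted p = 8.2e-06, SE 0.19) in the mammary and -3.52 (adjusted p = 0.00011, SE 0.44) in the pigment lineage, and both calls held in each alternative fitted. Alg12, a mannosyltransferase of N-glycan assembly, had folds of -2.18 (adjusted p = 0.0021, SE 0.33) and -1.75 (adjusted p = 0.0028, SE 0.32) on line means of 571 ± 287 RPM in 4T1, 2149 ± 111 in Eph4-ev, 2769 ± 576 in B16F10 and 9015 ± 3437 in Melan-a (n = 3, SD). Here B16F10 lay above Eph4-ev, so the tumour lines as a pair were not below the non-tumour lines. Enah, an actin regulator of the Ena/VASP family, had folds of -1.96 (adjusted p = 0.045, SE 0.60) and -1.89 (adjusted p = 0.0043, SE 0.38). The first of these was lost without any 1 library other than 4T1 replicate 3 (edgeR adjusted p = 0.084 to 0.15) or with total reads in place of TMM factors (0.059), and the second without B16F10 replicate 1 (0.068).

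Vars, the valyl-tRNA synthetase gene, was higher in both tumour lines. Its circle of exons 21 to 22 was read at 2055, 1297 and 1681 RPM in the 4T1 libraries, 98.7, 406 and 288 in Eph4-ev, 1049, 1062 and 958 in B16F10 and 39.9, 238 and 119 in Melan-a. The tumour-line libraries all lay above the non-tumour libraries, with log2 folds of 2.41 (adjusted p = 0.0083, SE 0.47) and 2.76 (adjusted p = 0.0043, SE 0.55). Tulp4, a tubby-like gene, separated the lines in the same way, at 4559, 1861 and 3294 RPM in the 4T1 libraries, 1579.5, 1324 and 1368 in Eph4-ev, 3498, 3895 and 3534 in B16F10 and 917, 1103 and 239 in Melan-a. Its fold in B16F10 was 2.17 (adjusted p = 0.0031, SE 0.41), but that in 4T1 was 0.95 (adjusted p = 0.049, SE 0.30) and was lost without any 1 library other than 4T1 replicate 2 (edgeR adjusted p = 0.094 to 0.21) or without the filter on low counts (0.33). Nup155 had folds of 2.49 (adjusted p = 0.02, SE 0.61) and 2.12 (adjusted p = 0.032, SE 0.57). Its call in the mammary lineage was lost without any 1 library other than 4T1 replicate 3 (edgeR adjusted p = 0.051 to 0.077), and that in the pigment lineage without Melan-a replicate 3 or B16F10 replicates 2 or 3 (0.078 to 0.15), without the filter on low counts (0.085) or by DESeq2 (0.074).

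The 5 circles with opposite calls were lower in 4T1 and higher in B16F10. Besides the Eif5b/Rev1 circle, they came from Mettl9, a histidine methyltransferase, Papd7, a noncanonical poly(A) polymerase, Fbxw7, the substrate receptor of an SCF ubiquitin ligase, and Ezh2, the methyltransferase of Polycomb complex PRC2. Papd7 was read at 1669.7, 2594 and 1255 RPM in the 4T1 libraries, 2626, 2683 and 3186 in Eph4-ev, 1599, 1476 and 1078 in B16F10 and 399, 149 and 159 in Melan-a. Melan-a lay far below the other 3 lines, with folds of -0.90 (adjusted p = 0.034, SE 0.26) and 2.50 (adjusted p = 0.0031, SE 0.47). Its mammary call was lost without any 1 library other than 4T1 replicate 2 (edgeR adjusted p = 0.062 to 0.14), with total reads in place of TMM factors (0.13) or with a minimum count of 10 (0.062), and its pigment call was not lost. Fbxw7 had folds of -1.05 (adjusted p = 0.023, SE 0.27) and 1.31 (adjusted p = 0.033, SE 0.36), and Mettl9 -1.25 (adjusted p = 0.043, SE 0.38) and 1.19 (adjusted p = 0.014, SE 0.28). For Fbxw7, the mammary call was lost without 4T1 replicate 2 or Eph4-ev replicates 1 or 2 (edgeR adjusted p = 0.055 to 0.092) and the pigment call without any 1 library other than Melan-a replicate 2 (0.085 to 0.17), without the filter on low counts (0.13) or by DESeq2 (0.080). For Mettl9 they were lost without any 1 mammary library other than 4T1 replicate 1 (0.078 to 0.15) and without Melan-a replicate 3 or B16F10 replicates 1 or 3 (0.065 to 0.11). The mammary call of Mettl9 was also lost with total reads in place of TMM factors (edgeR adjusted p = 0.099) or a minimum count of 10 (0.051), and its pigment call without the filter on low counts (0.062).

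Ezh2 gave 4 core circles that all begin at its exon 2 and so share a back-splice acceptor. The pair from exons 2 to 3 differs only in the end of exon 3, where annotated donors lie 27 bases apart, and their junctions, printed as above, share the capitals and differ before them. The remaining pair ends at exon 8 and exon 15.
Ezh2 longer exon 3 chr6:47576536-47577667 minus strand: cgcgggactagggagAATAATCATGGGCCA
Ezh2 shorter exon 3 chr6:47576563-47577667 minus strand: cacatcatgacttctAATAATCATGGGCCA
Ezh2 exons 2 to 8 chr6:47551732-47577667 minus strand: actgcttcctacatcAATAATCATGGGCCA
Ezh2 exons 2 to 15 chr6:47540677-47577667 minus strand: cggggctctaaaaagAATAATCATGGGCCA

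The longer form was read at 642, 677 and 852 RPM in the 4T1 libraries, 3021, 2807 and 2970.3 in Eph4-ev, 7596, 7024 and 7666 in B16F10 and 3549.8, 6526 and 3419 in Melan-a, and the shorter at 64.2, 113 and 314 RPM in the 4T1 libraries, 691, 653 and 990.1 in Eph4-ev, 1549, 1829.7 and 1737 in B16F10 and 838, 1430.4 and 1431 in Melan-a. Both were lowest in 4T1 and highest in B16F10, the longer form being the more abundant in all 12 libraries. The log2 folds in 4T1 were -2.19 (adjusted p = 0.00052, SE 0.26) and -2.19 (adjusted p = 0.027, SE 0.58) by edgeR, the second of which was lost without any 1 library other than 4T1 replicate 3 (adjusted p = 0.051 to 0.11), and in B16F10 against Melan-a the folds were 0.64 (adjusted p = 0.2, SE 0.30) and 0.39 (adjusted p = 0.54, SE 0.33). The circle ending at exon 8 was the one called in opposite directions, with folds of -2.26 (adjusted p = 0.034, SE 0.65) and 1.52 (adjusted p = 0.036, SE 0.44). Its mammary call was lost without 4T1 replicates 1 or 2 or Eph4-ev replicates 1 or 2 (edgeR adjusted p = 0.062 to 0.15), and its pigment call without any 1 library other than Melan-a replicate 2 (0.066 to 0.16), without the filter on low counts (0.21) or by DESeq2 (0.12). The circle ending at exon 15 had line means of 202 to 455 RPM, a ratio of 2.25, and was not called in the 4-line test (edgeR adjusted p = 0.35).

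Circles of a single host did not always share a pattern. Dennd1b gave, beside its even circle of exons 6 to 9, a circle of exons 4 to 9 with the same end, read at 997 ± 305 RPM in 4T1, 1612 ± 455 in Eph4-ev, 3308 ± 674 in B16F10 and 2139 ± 133 in Melan-a (n = 3, SD). That circle was called in the 4-line test (edgeR adjusted p = 0.00058), and so was another, of exons 10 to 14 (adjusted p = 0.012), which was higher in 4T1 than in Eph4-ev with a log2 fold of 1.94 (adjusted p = 0.018, SE 0.46). Both calls of the latter were lost without 4T1 replicate 3 (adjusted p = 0.062 and 0.079), and that against Eph4-ev also without Eph4-ev replicates 2 or 3 (0.098 and 0.075). The 4-line call was lost as well without the filter on low counts (0.067). Arhgap10, a GTPase-activating protein, gave a variable circle of exons 2 to 3, read at 2376, 1409.6 and 695 RPM in the 4T1 libraries, 336, 388 and 198 in Eph4-ev, 649.6, 354 and 479 in B16F10 and 39.9, 119 and 119 in Melan-a. Its log2 fold in 4T1 was 1.96 (adjusted p = 0.02, SE 0.48), lost without 4T1 replicate 1 or Eph4-ev replicates 2 or 3 (edgeR adjusted p = 0.085 to 0.093). The other 2 Arhgap10 circles, which share an end at exon 18, were higher in both mammary lines, at 1657 and 1643 RPM against 559 and 607 for exons 14 to 18. Whether circles of a host differed from each other was not tested.

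Tasp1, which encodes the protease taspase 1 that cleaves MLL, gave 5 core circles, 4 of which begin at exon 2. Their junctions show the shared start in capitals and the 4 different ends.
Tasp1 exons 2 to 4 chr2:140042094-140057499 minus strand: ctggtggaacttgagGTTGACTCCCTTTGC
Tasp1 exons 2 to 5 chr2:140008699-140057499 minus strand: ttggagcactgagtgGTTGACTCCCTTTGC
Tasp1 exons 2 to 6 chr2:139996073-140057499 minus strand: cagaattcctccctgGTTGACTCCCTTTGC
Tasp1 exons 2 to 8 chr2:139977607-140057499 minus strand: caatcaagcgcaaagGTTGACTCCCTTTGC

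The Tasp1 circle of exons 2 to 4 led, with 1696 ± 146 RPM in 4T1, 1736 ± 49.9 in Eph4-ev, 2942 ± 529 in B16F10 and 3009.7 ± 950.1 in Melan-a (n = 3, SD). The circle of exons 2 to 8 was read at 336, 759 and 270.0 RPM in the Eph4-ev libraries, below every B16F10 and Melan-a library, which held 1499, 1712 and 1617 and 1476, 2235 and 2425. All 4 circles from exon 2 were called in the 4-line test (edgeR adjusted p = 0.0022 to 0.041), while that of exons 9 to 11 was not (0.38). The call for exons 2 to 6 was lost without any 1 library other than Eph4-ev replicate 1 or Melan-a replicate 3 (0.051 to 0.18), with total reads in place of TMM factors (0.057) or without the filter on low counts (0.18). None of the 5 was called within a lineage by edgeR (adjusted p = 0.069 or more).

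Rere, an atrophin family corepressor, gave the most core circles of any host, 6, and none dominated: the largest line mean of any was 1168 RPM, for exons 3 to 4 in 4T1. The Rere circle of exons 4 to 7 was lower in 4T1 than in Eph4-ev (log2 fold -2.10 (adjusted p = 0.032, SE 0.59)), and that of exons 2 to 4 was called in the 4-line test, at 1022 and 922 RPM in the pigment lines against 402 and 309 in the mammary lines (edgeR adjusted p = 0.015). The first was lost without any 1 library other than 4T1 replicate 1 (0.068 to 0.16) or with total reads in place of TMM factors (0.053), and the second without Eph4-ev replicate 2 (0.058) or B16F10 replicate 2 (0.053). Rabep1, the Rab5 effector rabaptin-5, gave 3 circles that start at exon 2 and end at exons 3, 4 and 5. The shortest supplied 72.6% of Rabep1 junction reads in Eph4-ev and 78.2% in Melan-a, but 42% in 4T1 and 44.7% in B16F10, and was lower in 4T1 than in Eph4-ev (log2 fold -1.52 (adjusted p = 0.0041, SE 0.25)). Kansl1, of the NSL acetyltransferase complex, gave 4 circles, of which the most abundant, exons 4 to 5, ran from 940.0 RPM in 4T1 to 1552 in Melan-a and missed the 4-line threshold (edgeR adjusted p = 0.061). In all, 102 core circles shared a back-splice site with another core circle.

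Grouped by what their hosts do, chromatin and Mediator genes gave 41 core circles, of which 15 were called among the 4 lines. Whsc1, a histone H3 lysine methyltransferase gene, was lower in 4T1 than in Eph4-ev, with a log2 fold of -1.02 (adjusted p = 0.022, SE 0.26), lost without Eph4-ev replicates 1 or 2 (edgeR adjusted p = 0.054 and 0.10) or with total reads in place of TMM factors (0.087). Transcription factor hosts gave 19 circles, 11 of them called in the 4-line test, with Elf2, Nfix and Zfp609 in the lead. RNA processing and translation gave 25 circles with 15 called and a median ratio of 4.05, led by Gigyf2, Eefsec and the Eif5b/Rev1 circle. In B16F10 against Melan-a, 5 of the 22 tested circles of that group were higher and 2 lower, beside backgrounds of 5.03% and 5.84%. Beside the 4-line counts stands a background of 43.7%.

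Membrane traffic and cytoskeleton hosts gave 30 circles, 16 of them called in the 4-line test (background 43.7%), and 5 were lower (background 11.4%) and 1 higher (background 5.99%) in 4T1 than in Eph4-ev. Dtnb, dystrobrevin beta, and Vapa, an anchor of membrane contacts at the endoplasmic reticulum, were among the lower. Dtnb was read at 1927, 1748 and 2218 RPM in the 4T1 and 9378, 9603 and 8875 in the Eph4-ev libraries, and Vapa at 1669.7, 1748 and 1569 RPM in the 4T1 and 7977, 8191 and 7633 in the Eph4-ev libraries. The libraries did not overlap in either case, and the log2 folds were -2.44 (adjusted p = 1.8e-05, SE 0.18) and -2.49 (adjusted p = 8.2e-06, SE 0.17). In B16F10 against Melan-a neither was called, with log2 folds of -0.45 (adjusted p = 0.48, SE 0.34) and -0.35 (adjusted p = 0.56, SE 0.31). The group took 2.82% of pooled junction reads in 4T1, 4.85% in Eph4-ev, 1.93% in B16F10 and 2.31% in Melan-a.

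Kinase and phosphatase hosts gave 20 circles, of which 8 of 19 tested were called among the 4 lines (background 43.7%). Hipk3, a homeodomain-interacting kinase whose exon 2 is a well known circle, was read at 2569, 2707 and 3003 RPM in the 4T1 libraries, 2685, 2507 and 2034 in Eph4-ev, 6396, 7024 and 5031 in B16F10 and 3749, 4708 and 4492 in Melan-a. B16F10 was highest and Melan-a second, without overlap with the mammary lines, and the 4-line test gave an edgeR adjusted p of 0.00029. Insr, the insulin receptor, had the opposite order, from 2205 ± 415 RPM in 4T1 and 1595 ± 349 in Eph4-ev to 583 ± 79.8 in B16F10 and 1071 ± 798 in Melan-a (n = 3, SD). Cdk8, the kinase of Mediator, was lower in B16F10 than in Melan-a (log2 fold -1.26 (adjusted p = 0.036, SE 0.36)), a call lost without any 1 library other than Melan-a replicate 3 (edgeR adjusted p = 0.064 to 0.20), without the filter on low counts (0.18) or by DESeq2 (0.083).

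Ubiquitin system hosts gave 16 circles with 6 called in the 4-line test, and cell cycle and DNA repair hosts 12 with 8 called, 5 of these 12 being the Tasp1 circles. Usp3, a histone deubiquitinase, was lower in 4T1 than in Eph4-ev (log2 fold -1.49 (adjusted p = 0.014, SE 0.33)), lost without Eph4-ev replicate 2 (edgeR adjusted p = 0.092). Among genes of factors that act on circle formation, 3 gave core circles and all 3 were called among the 4 lines: Ptbp3, described above, and the muscleblind splicing regulators Mbnl1 and Mbnl2. Mbnl2 exon 2 was read at 374 ± 233 RPM in 4T1, 109 ± 77.1 in Eph4-ev, 503 ± 26.2 in B16F10 and 1008 ± 159 in Melan-a (n = 3, SD). Mbnl1 was lowest in the same line, with 5, 3 and 7 reads in the Eph4-ev libraries, and its call was lost without any 1 of the Eph4-ev libraries, B16F10 replicate 2 or Melan-a replicate 2 (edgeR adjusted p = 0.054 to 0.14) or without the filter on low counts (0.11). Hosts well described in earlier circRNA work gave 28 core circles, and 18 of 27 tested were called. The 4-line background beside these counts was 43.7%, and nothing particular to a group of hosts was tested.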

How the data were processed

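CircRNA-seq was measured in 12 libraries, 3 for each of 4 lines. Per the submitters' processing notes the build is mm10, and BWA, TopHat, DESeq, DESeq2 and edgeR are named without a role. Filters and the way junction calls were combined: not given in the sources used here. The deposited count columns are raw back-splice reads, per the file headers. RPM values were scaled by the authors to each column's total: 100% of values gave whole reads within 0.01, and these equalled the deposited counts, so a test on recovered reads is the same test. The tables list 9492 circRNAs for the mammary and 12910 for the pigment lines. Of the latter, 4053 held 0 reads in every pigment library, whereas 0 of the mammary entries lacked mammary reads. A listing in both tables therefore does not mean reads in both lineages. Each table was scaled on its own, so RPM set side by side across tables are shares of each library's own reads and not amounts per cell. No molecular identifiers are mentioned.

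Tests used edgeR 4.0.16 in R 4.3.3 (quasi-likelihood F test with TMM scaling, after filterByExpr at min.count 5 and min.total.count 10, with Benjamini-Hochberg adjustment over all circRNAs tested and calls under 0.05). Each lineage was tested within its table. The 4-line test and the interaction used all 12 libraries and the circRNAs in both tables. Folds are log2 values, the tumour line over the other line. The fits were tested on simulated counts. DESeq2 1.42.0, other scalings, filters, a replicate block and leaving out each library were alternatives. Exons, introns and junctions came from GENCODE M21 by exact exon ends, preferring transcripts of the named host.

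The members and gene lists were chosen with earlier results of these data known. Circles were named by rule: the 10 with the highest mean RPM, the 8 with the smallest ratio of line means among those with at least 10 reads in each library, the 8 with the largest ratio among those called, the 4 largest folds per comparison and direction, circles of hosts with 3 or more, circles called in both comparisons, 3 on each side of the rule, and up to 3 per host list.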

Additional observations from a re-analysis of the deposited data

Results flagged for a closer look

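Looked up here were the circles named for level, for a large ratio of line means, for a large fold or for calls in both comparisons. In 15 of them the fold of tumour over non-tumour line differed between the mammary and the pigment lineage. The test was that of the difference itself (edgeR interaction, adjusted p under 0.05). Circles named only by the other rules were not looked up, so their absence here does not mean equal folds. Values here are the log2 fold in the mammary lineage minus that in the pigment lineage. The difference was negative, that is the fold was lower in the mammary lineage, for 10 circles: Eif5b/Rev1 -4.56 (SE 0.45), Ezh2 exons 2 to 8 -3.81 (SE 0.82), Ptbp3 -3.51 (SE 0.52), Papd7 -3.43 (SE 0.54), Cbfb -2.54 (SE 0.57), Mettl9 -2.45 (SE 0.49), Fbxw7 -2.38 (SE 0.48), Tns3 exons 18 to 20 -2.0 (SE 0.53), Eefsec -1.84 (SE 0.33) and Rnf169 -1.22 (SE 0.39). It was positive for 5: Vps45 3.09 (SE 0.63), Phlpp1 2.66 (SE 0.64), Ncoa2 2.49 (SE 0.54), Med13l 2.02 (SE 0.39) and Pvt1 0.95 (SE 0.25). For Rnf169 the edgeR adjusted p was 0.044 and passed the threshold no longer without 4T1 replicate 3, any 1 of the Eph4-ev or B16F10 libraries, or Melan-a replicates 1 or 3 (0.053 to 0.15), nor with RLE factors (0.11), total reads (0.10) or a minimum count of 10 (0.086). For Pvt1 it was 0.016, and 0.052 to 0.11 without Eph4-ev replicates 1 or 2, B16F10 replicates 1 or 3, or Melan-a replicate 1, and 0.18 without the filter on low counts. For Ncoa2 it was 0.057 without 4T1 replicate 3, and for Tns3 0.076 without B16F10 replicate 1. The other 11 kept their call without any 1 library, and Phlpp1 alone of them lost it in another setting, without the filter (0.064).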

How the results depend on the processing

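With at least 2 reads asked of each library 340 circles met the rule, and with at least 5, 172. The share of junction reads was then 38.6% and 29.2% in 4T1, 41.1% and 31.3% in Eph4-ev, 38.3% and 29.2% in B16F10, and 40.2% and 30.9% in Melan-a. Leaving out 1 library gave 477 to 515 circles and shares of 43.8% to 45.1% in 4T1, 45.8% to 47.0% in Eph4-ev, 42.5% to 44.8% in B16F10 and 44.1% to 46.2% in Melan-a. The 20 circles called higher in 4T1 became 36 with total reads alone, 9 without the filter on low counts, 37 with a minimum count of 10, 13 among circles with at least 2 reads in each library, and 5 to 16 without 1 library. The 57 called lower became 19 to 54 without 1 library. In B16F10 the 18 higher became 9 without the filter, 11 by DESeq2 and 8 to 25 without 1 library, and the 24 lower became 11, 14 and 5 to 31. The 4-line count of 201 was 153 to 199 without 1 library, 142 without the filter and 257 by DESeq2. The interaction count of 55 was 33 to 55 without 1 library, 37 without the filter and 80 by DESeq2. With a replicate block, 23 were higher and 52 lower in 4T1, 17 higher and 17 lower in B16F10, and the interaction called 49. The block ended the pigment calls of Pvt1 (edgeR adjusted p = 0.051), Cdk8 (0.064) and a circle of Agap1 (0.064) and the mammary calls of Vps13b (0.11), Ambra1 (0.057) and Zfp532 (0.17). Same-numbered libraries correlated between -0.058 and 0.069 in their deviations from line means, and differently numbered ones between -0.12 and 0.11. No pairing by replicate number was seen, but deviations that rest on few reads cannot exclude one. The block was not fitted for the 4-line test. Folds of named circles were followed only where the main fit had called them, and none of these log2 folds reversed its sign. Whether uncalled folds did so was not looked at. The values of the 4-line test are p-values, which have no sign. Of 2144 alternative values of both kinds, 1907 kept their side of the threshold and 237 lost their call. A circle that an alternative did not test is not among these values. Of the losses, 187 came from leaving out 1 library, 23 from dropping the filter, 11 from total reads alone, 6 each from DESeq2 and the block, 3 from the minimum count of 10 and 1 from RLE factors. The cause of these losses was not tested.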

Other observations

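Some core circles hold only coding sequence with a length that is a multiple of 3, so the host's reading frame runs on across the back-splice. Of the 124 such core circles, 123 had no stop codon in that frame anywhere around the circle, and 114 of those also held an in-frame ATG. The other circRNAs listed in both tables, with reads in 1 to 11 libraries, held 2679 such circles whose frame could be checked. Of these, 2668 had no stop in frame and 2436 also held an ATG. These counts describe annotated sequence, and translation was not measured.

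A few more core circles of hosts with 3 or more had patterns of their own. Zranb1, the deubiquitinase Trabid, gave a circle at chr7:132948044-132950435 that matched no single transcript and was read at 2449, 2420 and 2755 RPM in B16F10 against 758, 1341 and 716 in Melan-a (edgeR log2 fold 1.34, SE 0.33, adjusted p = 0.019). That call was lost without any 1 pigment library other than Melan-a replicate 2 (edgeR adjusted p = 0.053 to 0.099). Ambra1, a regulator of autophagy, gave a circle of exons 9 to 11 that was higher in 4T1 than in Eph4-ev (edgeR log2 fold 1.64, SE 0.42, adjusted p = 0.023), lost without any 1 of the 6 mammary libraries (0.054 to 0.11) or without the filter on low counts (0.25). The 3 circles of Srbd1, which encodes a protein with an S1 RNA-binding domain, share their end at exon 14. None of them passed the 4-line test (edgeR adjusted p = 0.092 to 0.60).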
